A study of Homo sapiens with 12 samples.

Results

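Cerebral organoids (COs) grown from *c-JUN* edited stem cells were compared with WT COs at day 12 of culture. All day 12 libraries of the series entered the comparison, 6 of 12 in total: 2 of WT, 2 of KO#2 and 2 of KO#10, the remaining 6 having been collected at day 24. WT stands for H1, an established line of human embryonic stem cells, and KO#2 and KO#10 are both derivatives of H1, each a single clone, in which the *c-JUN* gene (symbol *JUN*) was targeted with CRISPR-Cas9. All groups received the same unguided organoid culture, in which embryoid bodies are formed first and then moved into neural induction medium, so that day 12 falls within neural induction. Every library was prepared from total RNA of a few COs pooled together. The labels name no batch beyond the replicate number (1 or 2), and the tissue field of the labels reads embryonic stem cells although the libraries came from COs. Where KO values are listed, they are given in the order KO#2 replicate 1, KO#2 replicate 2, KO#10 replicate 1 and KO#10 replicate 2. WT values are given as replicate 1 and replicate 2.

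The JUN protein pairs with itself or with FOS and ATF family proteins to form AP-1, a transcription factor that is switched on within minutes by growth factors and stress and that binds short palindromic sites in DNA. In an organoid, pluripotent cells first shut down OCT4 and lose E-cadherin, and then switch on N-cadherin, SOX1 and PAX6 as they become neuroepithelium. Small RNAs mark the same passage, since the miR-302 cluster belongs to pluripotent cells and miR-9 to the neural lineage.

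The deposited value of a gene is a whole-number score that had already been scaled by the authors. Each library held 10976 genes with a median of 17 and a highest value of 5585, and the totals of all 12 libraries lay between 473637 and 483149. Equal medians and equal highest values are properties of the scaling, so that the sequencing depth is unknown and a difference means a different rank within the library. Differences are given as log2FC, the log2 fold change of (score + 1), KO minus WT, with the standard error (SE) from limma, and *p* was adjusted by the Benjamini-Hochberg method over all genes tested. A gene was tested when its score reached 10 in at least 2 of the 6 libraries, and it was called at an adjusted *p* under 0.05 together with a change of at least 2-fold. Nothing in the labels says whether replicates 1 and 2 were separate cultures, so that each *p* measures the spread between these libraries only.

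The edited gene was examined first. *JUN* (chromosome 1, 58776845 to 58784048) scored 4 and 8 in WT versus 19, 18, 14 and 13 in KO. No KO library was below a WT library (log2FC 1.33, SE 0.26, adjusted *p* = 0.0622), and the gene was not called. *JUN* RNA was therefore not lower in the libraries labelled KO, and a score per gene cannot show whether the transcript carries the edit or is made into protein. In what follows, KO means the libraries labelled KO, and every direction is that of the labelled groups.

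The *JUN* promoter itself holds an AP-1 type element, and it is shown here because *JUN* RNA was read from a gene whose product binds such sites. The window from 250 bases before to 50 bases after the annotated start site was taken from RefSeq on GRCh38.p14 (chr1:58783998-58784297, minus strand), 5′ to 3′, and the capitals mark the 8-base element TGACATCA, whose first base lies 67 bases before the start site.
JUN: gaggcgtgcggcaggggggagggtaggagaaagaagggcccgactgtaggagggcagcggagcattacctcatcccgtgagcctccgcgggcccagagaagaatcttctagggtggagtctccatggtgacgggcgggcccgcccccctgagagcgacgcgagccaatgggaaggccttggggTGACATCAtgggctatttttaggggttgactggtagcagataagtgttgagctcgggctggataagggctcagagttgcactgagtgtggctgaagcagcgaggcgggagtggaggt

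Among the AP-1 family, 10 of the 11 genes in the files could be tested at day 12. *FOSL2*, which encodes the FOS relative FRA2, was the only member called. It scored 3 in both WT libraries versus 13, 12, 9 and 9 in KO, without overlap (log2FC 1.54, SE 0.24, adjusted *p* = 0.0366). This was 1 call among 10 genes, against 0.405% of all 8885 genes tested that were called higher. *FOS*, the partner of JUN in the classical AP-1 dimer, scored 1 and 6 in WT versus 25, 23, 20 and 14 in KO (log2FC 2.49, SE 0.45, adjusted *p* = 0.0527). *FOSB* scored 2 and 3 against 14, 10, 15 and 5 (log2FC 1.70, adjusted *p* = 0.0771). *JUND* scored 14 and 35 against 47, 48, 43 and 54 (log2FC 1.07, adjusted *p* = 0.0732). For these 3 genes every KO library was above both WT libraries, but none passed the threshold.

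The scores of *ATF3*, a stress-induced member, overlapped, with 5 and 10 in WT versus 9, 23, 14 and 19 in KO (log2FC 1.01, adjusted *p* = 0.0594). *MAF* was the only member with every KO library below both WT libraries, at 11 and 10 against 5, 7, 5 and 6 (log2FC −0.78, adjusted *p* = 0.120). *ATF2*, *ATF7* and *MAFG* were not called, with log2FC of 0.08, 0.04 and −0.01 and adjusted *p* of 0.693, 0.884 and 0.969. *JUNB* remained under the filter, with scores of 0 and 2 in WT and 5, 6, 2 and 5 in KO. The median log2 fold change of the 10 members tested was 1.04, beside −0.002 over all genes tested, and 5 of the 10 lay above WT in every KO library, beside 8.23% of all genes. Of the 10 members, 4 (*FOS*, *FOSB*, *FOSL2* and *JUN*) passed the filter through KO libraries alone and 1, *MAF*, through WT libraries alone. These 4 were among the 5 that lay above WT, so that part of that count and of the median was set by the filter.

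Other immediate early genes, which cells transcribe within minutes of a stimulus, were listed to set the AP-1 members in context. Of 16 tested, 15 had a positive log2 fold change (49.4% of all genes) and 7 lay above WT in every KO library (8.23% of all genes). The median was 0.69, beside −0.002 over all genes, and only *CCN2* was called (0.405% of all genes called higher). *CCN2*, encoding connective tissue growth factor, scored 12 and 16 in WT versus 25, 37, 34 and 35 in KO (log2FC 1.17, SE 0.14, adjusted *p* = 0.0229). Next by *p* came *RHOB*, a small GTPase gene, at 15 and 21 against 28, 39, 21 and 35 (log2FC 0.72, adjusted *p* = 0.0611), and *SOCS3*, a feedback inhibitor of cytokine signals, at 11 and 19 against 20, 29, 21 and 24 (log2FC 0.65, adjusted *p* = 0.0732). The lowest KO score of *RHOB* equalled the highest of WT, and the groups of *SOCS3* did not overlap. Summed over the 20 members in the files, the list stood at 173 and 252 in WT and between 294 and 383 in KO. Of the 16, 6 passed the filter through KO libraries alone. *NR4A1*, *GADD45A*, *DUSP1* and *IER5L* were among these 6 and also among the 7 above WT, so that part of that count was set by the filter.

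**Figure D1:**
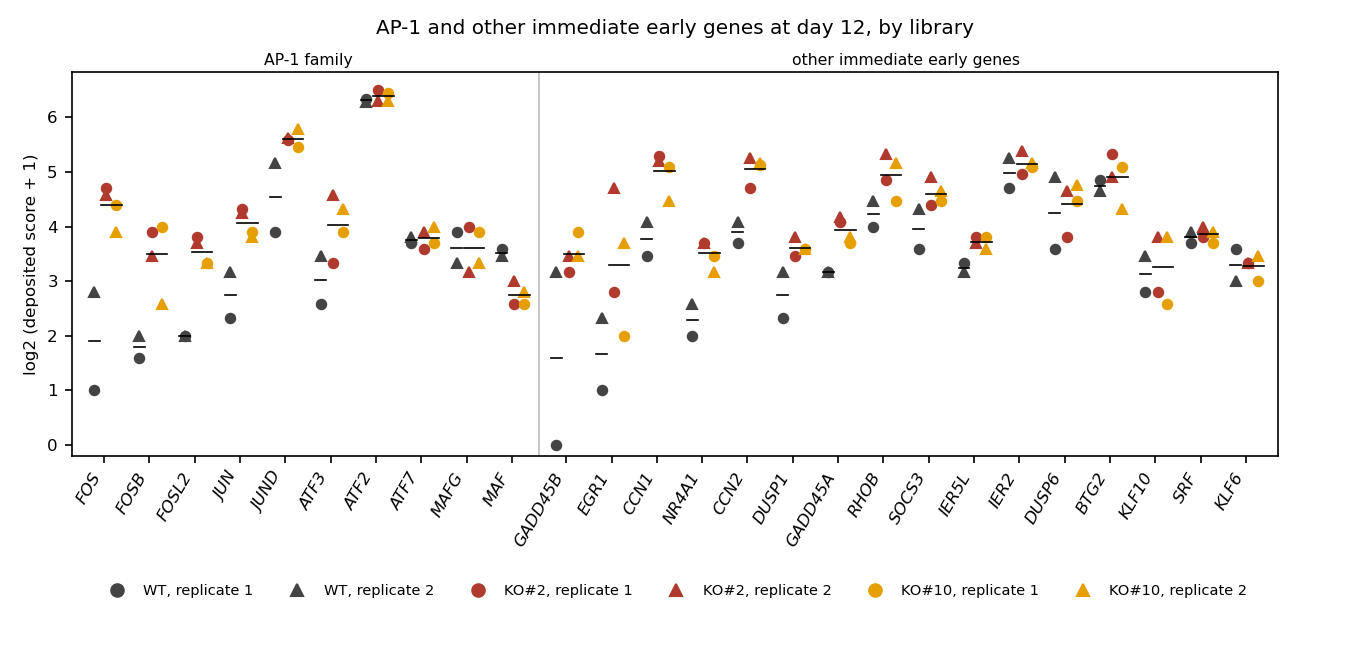
Log2 (deposited score + 1) of the AP-1 family (left) and the other immediate early genes tested (right) in the 6 day 12 libraries, genes ordered by log2 fold change within each list. Each point is 1 library, colour gives the line, shape gives the replicate number, and the short bars are group means. *FOS*, *FOSB*, *FOSL2*, *JUN* and *JUND* lie above WT in all 4 KO libraries, and *ATF2*, *ATF7* and *MAFG* do not separate.

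The classical AP-1 site, TGACTCA on either strand, was looked for in the same promoter windows. It was found in 2 of 29 promoters of genes called higher in KO (*FOSL2* and *EMP1*) and in 1 of 24 promoters of genes called lower (*TENT5B*), beside 4.92% of all 27305 promoters and 2.47% of those of the genes tested. RefSeq promoters were matched by symbol for 29 of the 36 genes called higher and 24 of the 35 called lower. The cyclic AMP element TGACGTCA was found for *MIR9-1HG* alone among the called genes (1.98% of all promoters and 3.91% of those of the genes tested), and TGACATCA, the element of the *JUN* promoter, for *EPHA3* and *LEMD1* (2.71% of all promoters and 1.33% of those of the genes tested). None of these matches is a measured binding site. The 3 promoters with TGACTCA are printed 5′ to 3′ on GRCh38.p14 with the site in capitals, which reads as its reverse complement TGAGTCA in *EMP1*. They lie at chr2:28392608-28392907 (plus strand), chr12:13196476-13196775 (plus strand) and chr1:27012801-27013100 (minus strand).
FOSL2: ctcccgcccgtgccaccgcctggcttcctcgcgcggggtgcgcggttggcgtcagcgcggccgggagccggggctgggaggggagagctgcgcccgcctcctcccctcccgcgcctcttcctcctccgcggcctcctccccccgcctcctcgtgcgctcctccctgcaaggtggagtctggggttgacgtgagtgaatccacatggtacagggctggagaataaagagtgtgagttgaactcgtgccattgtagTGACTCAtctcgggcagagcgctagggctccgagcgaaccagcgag
EMP1: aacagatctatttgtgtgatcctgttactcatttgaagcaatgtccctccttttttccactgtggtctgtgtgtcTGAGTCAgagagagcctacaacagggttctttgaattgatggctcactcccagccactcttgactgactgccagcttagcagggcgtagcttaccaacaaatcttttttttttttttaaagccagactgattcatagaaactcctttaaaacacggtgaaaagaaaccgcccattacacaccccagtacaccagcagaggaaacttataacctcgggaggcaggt
TENT5B: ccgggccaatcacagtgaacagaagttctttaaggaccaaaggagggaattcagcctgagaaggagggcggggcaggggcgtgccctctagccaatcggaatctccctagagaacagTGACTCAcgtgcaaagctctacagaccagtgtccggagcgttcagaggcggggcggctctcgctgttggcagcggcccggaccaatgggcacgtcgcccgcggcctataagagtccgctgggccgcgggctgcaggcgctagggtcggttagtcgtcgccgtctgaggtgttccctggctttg

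In *FOSL2* the site began 5 bases into the transcript, in *EMP1* 175 bases and in *TENT5B* 133 bases before the start. *EMP1*, an epithelial membrane protein gene, scored 1 and 4 in WT versus 13, 24, 14 and 11 in KO (log2FC 2.32, SE 0.36, adjusted *p* = 0.0366). *TENT5B*, a terminal nucleotidyltransferase gene, scored 14 and 23 in WT versus 4, 10, 3 and 7 in KO (log2FC −1.55, SE 0.22, adjusted *p* = 0.0285). The groups did not overlap for either gene, and the directions were opposite.

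Across the transcriptome, 36 genes were called higher in KO (0.405% of 8885 tested) and 35 lower (0.394%). All KO libraries exceeded both of WT for 731 genes (8.23%) and were under both for 741 (8.34%), and the median log2 fold change of all genes was −0.002, with 49.4% of them positive. An unadjusted *p* under 0.05 was reached by 1721 genes in either direction (19.4%). Among the called genes the groups did not overlap for 34 of the 36 and 34 of the 35, the exceptions being *MID1*, *SOX3* and *MAN2A1*. The sign was the same in both replicate sets for all 71. The separation and the shared sign follow in large part from the thresholds by which the genes were called in these same libraries. A part of the calls was bound to differ through the filter, because 19 of the 35 lower genes reached a score of 10 in WT libraries alone and 18 of the 36 higher genes in KO libraries alone. Without the replicate number as a block, 2 genes were called higher (*PLK2* and *TPPP3*) and 6 lower (*TDGF1*, *POU5F1*, *MGST1*, *UGP2*, *AASS* and *DNMT3B*).

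The calls also rested on single libraries. Leaving out KO#2 replicate 1 gave 2 genes called higher and 5 lower, of which 1 and 5 were among the 71. Leaving out KO#2 replicate 2 gave 0 and 2, of which 0 and 2 were among the 71. Without KO#10 replicate 1 the counts were 0 and 0. Without KO#10 replicate 2 they were 1 and 2, of which 0 and 2 were among the 71. Leaving out either WT library left 1 WT library, so the calls of those fits are not counted here. At an unadjusted *p* under 0.05 and a 2-fold change, 88 genes were higher and 68 lower with all libraries. No gene kept its call through every library left out. The sign of all 71 genes stayed the same under every alternative in which they could be tested. These genes were chosen for a 2-fold change in the same libraries, so that a kept sign was close to set in advance. Called genes also differed between the replicate sets. Replicate 2 was above replicate 1 for 31 of the 36 genes called higher and 27 of the 35 called lower, beside 51.2% of all genes, and its part in the calls was not tested apart from the block.

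**Figure D2:**
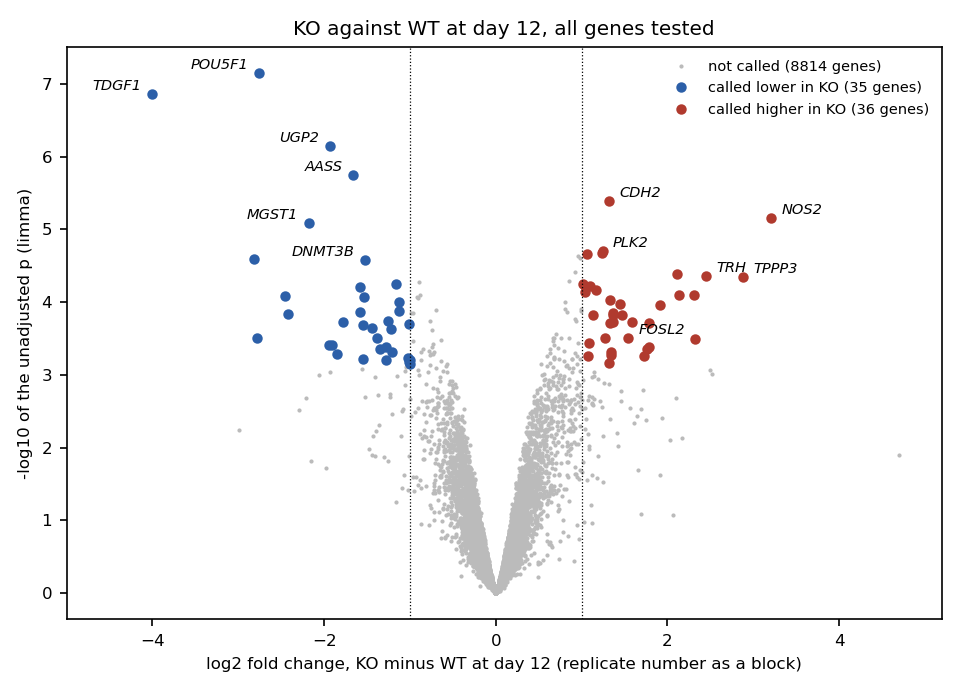
Log2 fold change of KO against WT at day 12 (x axis) against −log10 of the unadjusted limma *p* (y axis) for the 8885 genes tested, with replicate number as a block. Coloured points are the 35 genes called lower and the 36 called higher, and dotted lines mark a 2-fold change. *POU5F1* and *TDGF1* stand at the top left, and *CDH2* and *NOS2* at the top right.

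Of the 35 genes called lower, 10 belonged to the list of pluripotency genes, which mark the undifferentiated state. *POU5F1*, which encodes OCT4 (chromosome 6, 31164337 to 31180731), scored 107 and 136 in WT versus 16, 19, 17 and 16 in KO. All 4 KO libraries were close together and far below WT (log2FC −2.76, SE 0.12, adjusted *p* = 0.000610). *TDGF1*, encoding the Nodal co-receptor Cripto (chromosome 3, 46574534 to 46582457), scored 50 and 110 in WT versus 3, 4, 3 and 5 in KO (log2FC −4.01, SE 0.19, adjusted *p* = 0.000610). It was the most negative log2 fold change of all genes tested. *DNMT3B*, the de novo DNA methyltransferase of early embryonic cells, scored 100 and 114 in WT versus 28, 37, 41 and 42 in KO (log2FC −1.52, SE 0.16, adjusted *p* = 0.0167). *POU5F1* and *TDGF1* were each called in 13 of their 16 and 14 alternative fits.

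Of the 39 genes on the pluripotency list 22 were in the files, 19 could be tested, 10 were called lower and 0 higher, beside 0.394% of all genes called lower. All 19 log2 fold changes were negative (median −1.43), and in 16 all KO libraries were under both of WT, beside 8.34% of all genes. The list, like the others used here, was chosen with earlier results of these data known, so that its shares are no independent test. It held 7 genes that passed the filter through WT libraries alone, and all 7 were called. They were *TDGF1*, *ZFP42*, *ZSCAN10*, *LINC00678*, *VRTN*, *PIM2* and *HHLA1*. Part of the separation of these 7 was therefore set by the filter. *ZFP42*, encoding the zinc finger protein REX1, scored 32 and 21 in WT versus 4, 8, 5 and 9 in KO (log2FC −1.90, SE 0.30, adjusted *p* = 0.0407). *ZSCAN10*, another zinc finger gene of stem cells, scored 15 and 22 against 1, 4, 2 and 4 (log2FC −2.45, adjusted *p* = 0.0229). The kinase gene *PIM2* scored 17 and 32 against 7, 6, 4 and 8 (log2FC −1.78, adjusted *p* = 0.0277), and *HHLA1* at 19 and 35 against 7, 9, 8 and 8 (log2FC −1.58, adjusted *p* = 0.0219).

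The other called members were lower by smaller amounts or had low scores. *VRTN* stood at 13 and 20 in WT and between 4 and 5 in KO, and the non-coding *LINC00678* at 15 and 28 against 1 to 3. *L1TD1*, an RNA-binding protein gene of embryonic stem cells, scored 28 and 35 in WT versus 15, 15, 18 and 12 in KO (log2FC −1.03, SE 0.17, adjusted *p* = 0.0449). Several abundant genes of the list were not called. *LIN28A*, which blocks let-7 processing, scored 393 and 452 in WT versus 335, 302, 335 and 302 in KO (log2FC −0.41, adjusted *p* = 0.107), and *DPPA4* at 130 and 166 against 96, 83, 106 and 82 (log2FC −0.68, adjusted *p* = 0.0760). The scores of *SALL4* and *LIN28B* overlapped between the groups, with log2FC of −0.10 and −0.01. *NANOG* was under the filter, with 6 and 19 in WT versus 3, 2, 2 and 1 in KO. In bulk RNA, fewer pluripotent cells and less of these RNAs per cell cannot be told apart.

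**Figure D3:**
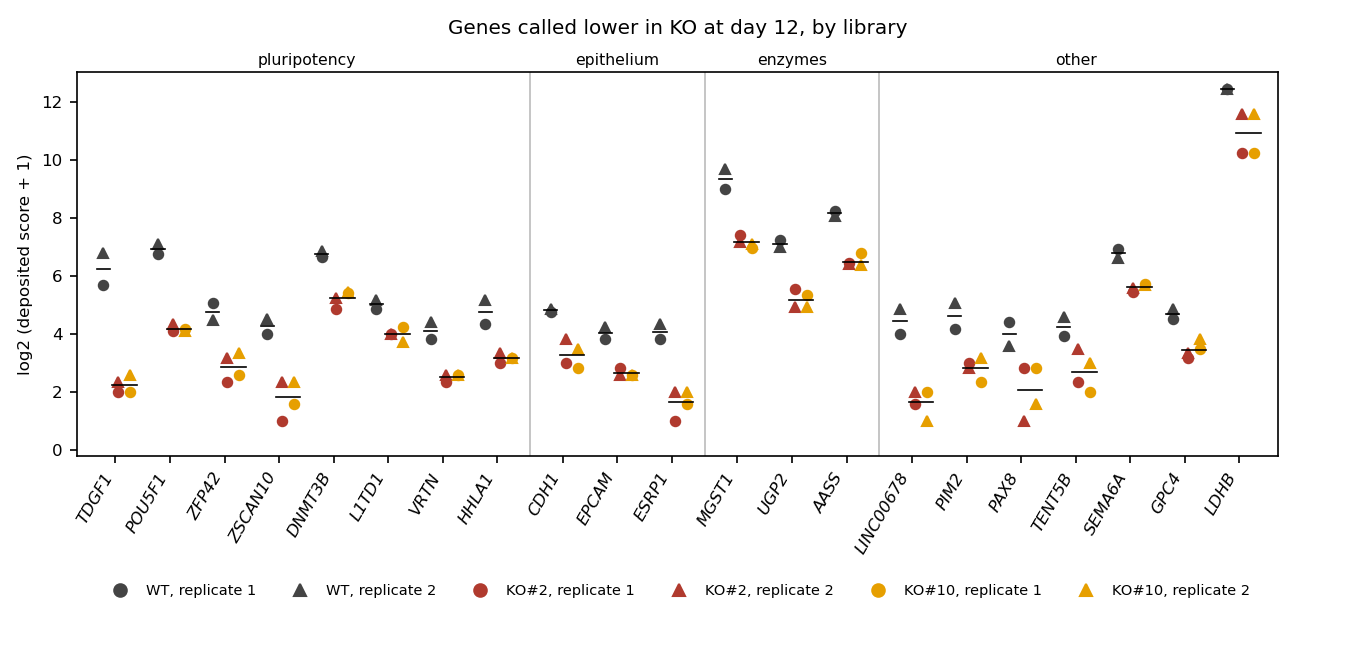
Log2 (deposited score + 1) of genes called lower in KO, in each of the 6 day 12 libraries, for genes of pluripotency, epithelium, enzymes and others. Points, colours, shapes and bars are as in the plot of AP-1 genes. In every gene shown the 4 KO libraries lie below both WT libraries, by a log2 fold change of −4.01 in *TDGF1* and −1.03 in *L1TD1*.

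The host transcripts of miR-302 and miR-9 could both be tested. *MIR302CHG*, which carries the miR-302 cluster on chromosome 4, scored 60 and 63 in WT versus 12, 29, 12 and 56 in KO. The groups did not overlap, but replicate 2 of KO#10 came close to WT and the gene was not called (log2FC −1.43, SE 0.38, adjusted *p* = 0.112). *MIR9-1HG*, the host of miR-9-1 on chromosome 1, scored 4 and 6 in WT versus 13, 27, 9 and 40 in KO, and was called higher (log2FC 1.76, SE 0.29, adjusted *p* = 0.0421). The mature products were not measured in these libraries. Their sequences are given from RefSeq (GRCh38.p14), 5′ to 3′, with the seed (bases 2 to 8), by which a microRNA recognises its targets, in capitals.
hsa-miR-302a-3p: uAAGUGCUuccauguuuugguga
hsa-miR-302b-3p: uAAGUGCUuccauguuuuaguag
hsa-miR-302c-3p: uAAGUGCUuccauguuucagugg
hsa-miR-302d-3p: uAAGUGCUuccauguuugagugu
hsa-miR-9-5p: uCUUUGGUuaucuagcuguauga
hsa-miR-9-3p: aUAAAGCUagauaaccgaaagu

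The 4 miR-302 arms printed, those from the 3′ side of the hairpins, share 1 seed and differ in their last bases, while the arms from the 5′ side carry other seeds and are not printed, and the 2 arms of miR-9 have seeds of their own. The mature miR-302 arms lie inside the interval that the files give for *MIR302CHG* (112646476 to 112650051), and the miR-9-1 arms inside that of *MIR9-1HG* (156404250 to 156456763).

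Epithelial genes were lower in part. *CDH1*, which encodes E-cadherin, scored 26 and 28 in WT versus 7, 13, 6 and 10 in KO (log2FC −1.54, SE 0.19, adjusted *p* = 0.0229). *EPCAM*, an epithelial adhesion molecule gene that pluripotent cells also express, scored 13 and 18 against 6, 5, 5 and 5 (log2FC −1.39, adjusted *p* = 0.0366). *ESRP1*, an epithelial splicing regulator, scored 13 and 19 against 1, 3, 2 and 3 (log2FC −2.42, adjusted *p* = 0.0255). These 3 of 11 genes tested were called lower, beside 0.394% of all genes, and 0 were called higher. *EPCAM* and *ESRP1* passed the filter through WT libraries alone. The keratins of simple epithelium were not called. *KRT8* scored 82 and 91 in WT versus 77, 114, 82 and 114 in KO, and *KRT19* at 57 and 58 against 52, 61, 47 and 62, with log2FC of 0.14 and −0.06 and adjusted *p* of 0.547 and 0.807.

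Junction genes showed 0 calls among 13 tested, in either direction, by limma, although 11 of the 13 log2 fold changes were negative (4478 of all 8885 genes tested) and 4 had an unadjusted *p* under 0.05, beside 19.4% of all genes. *CLDN6*, a claudin of tight junctions in early embryonic epithelia, scored 83 and 78 in WT versus 9, 30, 16 and 38 in KO. The groups did not overlap (log2FC −1.94, SE 0.35, adjusted *p* = 0.0534). *PATJ*, a scaffold of tight junctions, scored 19 and 16 against 11, 9, 11 and 9, and its adjusted *p* of 0.0437 went with a change of less than 2-fold (log2FC −0.75). *F11R*, a junctional adhesion molecule, scored 41 and 39 against 27, 33, 21 and 28 (log2FC −0.55, adjusted *p* = 0.125). Desmoplakin RNA (*DSP*) overlapped between the groups, at 16 and 21 against 12, 18, 13 and 21 (log2FC −0.22, adjusted *p* = 0.399).

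N-cadherin RNA moved opposite to that of E-cadherin. *CDH2* (chromosome 18, 27932879 to 28177946) scored 99 and 167 in WT versus 243, 472, 219 and 426 in KO (log2FC 1.32, SE 0.10, adjusted *p* = 0.00719). In each line replicate 2 was the higher, and in each replicate both KO libraries were above WT. *SOX3*, a SOXB1 factor of neural progenitors, scored 11 and 21 against 25, 49, 20 and 45 (log2FC 1.04, SE 0.13, adjusted *p* = 0.0229). Its groups overlapped when the replicate number was ignored, since KO#10 replicate 1 was below WT replicate 2. *MEIS2* and *MEIS1*, homeodomain partners of HOX and PAX proteins, rose as well. *MEIS2* scored 17 and 26 against 34, 92, 35 and 81 (log2FC 1.34, adjusted *p* = 0.0233) and *MEIS1* at 13 and 17 against 38, 38, 27 and 34 (log2FC 1.14, adjusted *p* = 0.0255).

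On the list of neural progenitor genes, 31 were tested, 5 were called higher (0.405% of all genes) and 0 lower. Of the 31, 23 had a positive log2 fold change (49.4% of all genes), with a median of 0.58, beside −0.002 over all genes. The other 8 were negative, and *SALL3* and *PTN* lay below WT in every KO library. *SALL3* scored 21 and 17 against 10, 8, 11 and 8 (log2FC −0.97, adjusted *p* = 0.0255, under 2-fold). *PTN* scored 29 and 20 against 11, 7, 13 and 17 (log2FC −1.01, adjusted *p* = 0.148). The fifth call was *HES4*, a transcriptional repressor of the Notch pathway, with 13 and 33 in WT versus 54, 61, 46 and 58 in KO (log2FC 1.35, SE 0.22, adjusted *p* = 0.0435). *PAX6*, a defining factor of forebrain neuroepithelium, scored 68 and 63 against 109, 109, 90 and 112. Its adjusted *p* was 0.0497 and its change under 2-fold (log2FC 0.67, SE 0.12), so that it was not called. *SOX1* scored 1 and 4 against 7, 10, 5 and 10 (log2FC 1.47, adjusted *p* = 0.0689). *SOX2* and *NES*, which are expressed from the start of neural induction, overlapped between the groups, with log2FC of −0.09 and 0.10 and adjusted *p* of 0.762 and 0.720.

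Notch pathway genes had 1 call (*HES4*) among 16 tested, beside 0.405% of all genes called higher. Of the 16 log2 fold changes 14 were positive (49.4% of all genes), with a median of 0.27, and 7 genes lay above WT in every KO library (8.23% of all genes). *DLL1*, a Notch ligand, scored 31 in both WT libraries versus 60, 45, 60 and 49 in KO (log2FC 0.76, SE 0.12, adjusted *p* = 0.0366, under 2-fold). *HES5*, a Notch target, scored 55 and 82 against 192, 149, 136 and 130 (log2FC 1.15, SE 0.21, adjusted *p* = 0.0534). The receptor genes were not called, with a log2 fold change of 0.32 for *NOTCH1* and 0.12 for *NOTCH2* (adjusted *p* = 0.192 and 0.615).

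*FEZF2*, a zinc finger factor of the forebrain, scored 1 and 4 in WT versus 11, 22, 6 and 18 in KO (log2FC 2.13, SE 0.26, adjusted *p* = 0.0229). It was the only one of 18 genes tested on the anterior neural plate list that was called higher (0.405% of all genes). On the same list *PAX8* was the only one called lower (0.394% of all genes), with 20 and 11 in WT versus 6, 1, 6 and 2 in KO (log2FC −1.94, SE 0.31, adjusted *p* = 0.0403). Membership of the list does not show the region of the neural plate from which an RNA came. Of the 18, 5 passed the filter through KO libraries alone, *FEZF2* among them, and 1, *PAX8*, through WT libraries alone. Every KO library was above both of WT for 5 of the 18 and under both for 4, beside 8.23% and 8.34% of all genes. *TRH*, the gene of thyrotropin-releasing hormone, scored 1 and 2 against 6, 20, 9 and 21 (log2FC 2.45, SE 0.28, adjusted *p* = 0.0215). It was the 1 call among 3 thalamic and diencephalic genes tested (0.405% of all genes called higher), and it passed the filter through KO libraries alone. The other 2, *IRX2* and *TCF7L2*, had log2FC of −1.09 and −0.05 (adjusted *p* = 0.228 and 0.863). Of the 23 genes on that list, 9 were in the files. *DMRTA2*, a factor of the cortical hem, scored 0 and 1 against 8, 10, 3 and 10 and was not called (adjusted *p* = 0.0548).

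Among 26 genes of the neuronal membrane and of outgrowth, 4 were called higher and 1 lower, beside 0.405% and 0.394% of all genes. Besides *CDH2* these were *CNTN2*, an axonal adhesion molecule, with 1 and 3 in WT versus 6, 20, 6 and 21 in KO (log2FC 2.12, SE 0.24, adjusted *p* = 0.0215), *EPHA3*, an ephrin receptor, at 2 and 4 against 10, 23, 7 and 12 (log2FC 1.73, SE 0.29, adjusted *p* = 0.0445), and *LRP2*, the endocytic receptor megalin of neuroepithelium, at 55 and 58 against 190, 124, 158 and 96 (log2FC 1.27, SE 0.19, adjusted *p* = 0.0366). *SEMA6A*, a transmembrane semaphorin, fell from 121 and 96 to 42, 47, 52 and 50 (log2FC −1.16, SE 0.14, adjusted *p* = 0.0215). None of these groups overlapped. Of the 26, 3 passed the filter through KO libraries alone, *CNTN2* and *EPHA3* among them, so that part of their separation was set by the filter. Genes of differentiated neurons gave 0 calls among 10 tested by limma, with 6 at an unadjusted *p* under 0.05, beside 19.4% of all genes, and 3 of the 10 passed the filter through KO libraries alone. *MAP2* scored 102 and 154 against 149, 200, 200 and 193 (log2FC 0.55, adjusted *p* = 0.118), *STMN2* at 3 and 4 against 8, 12, 4 and 13 (adjusted *p* = 0.134), and *TUBB3* at 47 and 80 against 75, 98, 50 and 84 (adjusted *p* = 0.426). *DCX* stayed between 2 and 6 in all 6 libraries.

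**Figure D4:**
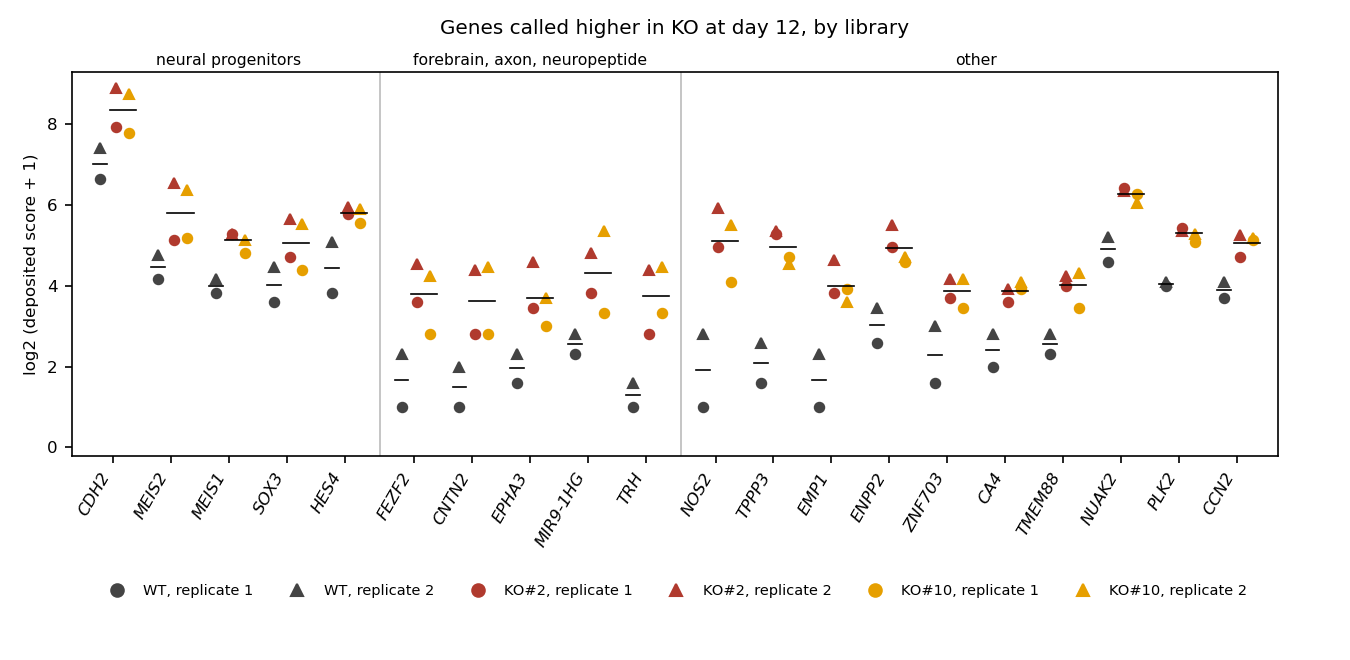
Log2 (deposited score + 1) of genes called higher in KO, in each of the 6 day 12 libraries. Points, colours, shapes and bars are as in the plot of AP-1 genes. Replicate 2 (triangles) tends to lie above replicate 1 (circles) within a line, as in *CDH2*, *SOX3* and *TRH*, and *SOX3* is the only gene shown whose KO and WT scores overlap.

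Further rises came from genes outside these lists. *NOS2*, the inducible nitric oxide synthase (chromosome 17, 27756766 to 27800529), scored 1 and 6 in WT versus 30, 59, 16 and 44 in KO (log2FC 3.21, SE 0.27, adjusted *p* = 0.0103), the most positive log2 fold change among the called genes. *TPPP3*, a tubulin-binding protein, scored 2 and 5 against 38, 40, 25 and 22 (log2FC 2.88, SE 0.33, adjusted *p* = 0.0215). *ENPP2*, which encodes the lysophosphatidic acid producing enzyme autotaxin, scored 5 and 10 against 30, 44, 23 and 25 (log2FC 1.91, adjusted *p* = 0.0252). *PLK2*, a polo-like kinase and p53 target, scored 15 and 16 against 42, 40, 33 and 38 (log2FC 1.25, SE 0.12, adjusted *p* = 0.0167).

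*KLHDC8A* scored 51 and 54 in WT versus 192, 128, 139 and 102 in KO, and the kinase gene *NUAK2* at 23 and 36 against 84, 80, 76 and 65, with log2FC of 1.36 and 1.37 and adjusted *p* of 0.0277 and 0.0255. *ZNF703*, a zinc finger gene, scored 2 and 7 against 12, 17, 10 and 17 (log2FC 1.58, adjusted *p* = 0.0277). *CA4*, a membrane-bound carbonic anhydrase, scored 3 and 6 against 11, 14, 14 and 16, and *TMEM88*, which binds Dishevelled and dampens WNT signals, at 4 and 6 against 15, 18, 10 and 19, with log2FC of 1.47 and 1.44 and adjusted *p* of 0.0255 and 0.0246. In all of these genes the lowest KO score exceeded the highest WT score. That was a condition for naming the largest rises and is no separate result. *ZNF703*, *CA4* and *TMEM88* also passed the filter through KO libraries alone.

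*MGST1*, *UGP2* and *AASS*, which all encode enzymes, were also called lower. *MGST1*, a microsomal glutathione transferase, scored 507 and 820 in WT versus 167, 142, 124 and 136 in KO (log2FC −2.18, SE 0.19, adjusted *p* = 0.0103). *UGP2*, which makes UDP-glucose, scored 149 and 126 against 46, 29, 39 and 29 (log2FC −1.94, SE 0.12, adjusted *p* = 0.00210). *AASS*, the first enzyme of lysine breakdown, scored 302 and 266 against 85, 83, 108 and 81 (log2FC −1.67, SE 0.12, adjusted *p* = 0.00401). The groups were far apart in all 3 genes. *LDHB*, a lactate dehydrogenase subunit, was called as well (log2FC −1.54, adjusted *p* = 0.0453), but its scores sat on levels that many abundant genes share, 5585 in both WT libraries and 1203, 3047, 1204 and 3048 in KO, so that its difference is a step between such levels.

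Broad cell programs gave few calls at this age. Cell cycle genes gave 0 calls among 40 tested by limma, with 9 at an unadjusted *p* under 0.05 (19.4% of all genes). Their log2 fold changes were negative for 33 (4478 of all 8885 genes tested), with a median of −0.15, beside −0.002 over all genes. *CDKN1A*, the p21 inhibitor of cell division, scored 19 and 15 in WT versus 36, 37, 38 and 25 in KO (log2FC 0.95, adjusted *p* = 0.0445), just under 2-fold. Ribosomal protein genes gave 0 calls among 76, with 14 at an unadjusted *p* under 0.05 (again beside 19.4% of all genes) and a median of 0.01. Of 29 hypoxia and glycolysis genes, *LDHB* was the only call (0.394% of all genes called lower).

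Markers of other tissues were read beside these results. Of the defining endoderm markers, *AFP*, *APOA1* and *TTR* summed to 3 and 13 in WT and to between 0 and 17 in KO. Of the mesodermal ones, *COL1A1* and *COL3A1* summed to 26 and 9 in WT and to between 12 and 30 in KO. The neural crest markers *SOX10* and *PAX3* stayed between 0 and 7 in each library, and *HBE1* was at 0 in all 6. Not among the scored genes were *SOX17* and *FOXA2* (endoderm), *TBXT*, *MIXL1* and *TWIST1* (mesoderm), and *FOXD3* (neural crest). *PECAM1* and *CDH5* (endothelium), *TP63* and *KRT5* (surface ectoderm), and *CGA* and *VGLL1* (trophoblast) were missing too. Low sums therefore do not show that these tissues were absent. *GABRP*, a marker of amnion, scored 18 and 13 in WT versus 4, 6, 4 and 8 in KO (log2FC −1.37, adjusted *p* = 0.0732). Genes of the whole epithelial list summed to 382 and 389 in WT and to between 255 and 401 in KO. The 22 pluripotency genes in the files summed to 1446 and 1715 in WT and to between 903 and 954 in KO, and the 33 neural progenitor genes to 2445 and 2965 in WT and to between 3277 and 3792 in KO. The part of a different cell makeup in any single result was not tested.

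The clones were also fitted apart, on the same WT libraries. KO#2 alone gave 23 genes higher (0.259%) and 12 lower (0.135%), and KO#10 alone 1 higher (0.0113%) and 4 lower (0.045%). Directly against each other, KO#10 and KO#2 gave 0 calls by limma, 9 genes at an unadjusted *p* under 0.05 with a 2-fold change, and 420 of 8885 genes (4.73%) at an unadjusted *p* under 0.05. For *POU5F1* the log2 fold change was −2.72 in KO#2 and −2.80 in KO#10, and for *TDGF1* −4.07 and −3.94. *NOS2* changed by 3.53 and 2.89, *TPPP3* by 3.24 and 2.53, and *EPHA3* by 2.07 and 1.40. In 31 of the 36 genes called higher the change was larger in KO#2 than in KO#10, and in 20 of the 35 called lower. None of the called genes differed between the clones after adjustment, and 5 of the higher and 2 of the lower had an unadjusted *p* under 0.05.

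The called genes were then read in the day 24 libraries, which share no library with day 12. There 392 genes were called higher in KO (4.22% of 9289 tested) and 352 lower (3.79%). Of the 35 genes called lower at day 12, 28 could be tested at day 24 and 16 were called lower again, which is 45.7% of the day 12 calls and 4.55% of the day 24 calls. None was called higher. Of the 36 genes called higher, 32 could be tested and 11 were called higher again, 30.6% of the day 12 calls and 2.81% of the day 24 calls, whereas *TMEM88* and *CA4* were called lower. The median log2 fold change of the lower genes was −1.54 at day 12 (all 35) and −2.10 at day 24 (the 28 tested there). That of the higher genes was 1.36 at day 12 (all 36) and 1.05 at day 24 (the 32 tested there). The medians of the 2 days thus cover different genes, and *NOS2*, *EMP1*, *FOSL2* and *DRD4* were the higher genes missing at day 24.

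WT COs still held pluripotency RNA at day 24. *POU5F1* scored 75 and 236 in WT versus 6, 4, 3 and 5 in KO, and *TDGF1* at 30 and 112 against 0, 1, 0 and 0. *CDH2* scored 95 and 44 in WT versus 290, 472, 266 and 369 in KO (log2FC 2.38, adjusted *p* = 0.0196). *TRH* scored 4 and 5 against 70, 37, 75 and 56 (log2FC 3.42, adjusted *p* = 0.00539). For these genes the direction at day 12 and day 24 was the same and the groups did not overlap on either day.

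**Figure D5:**
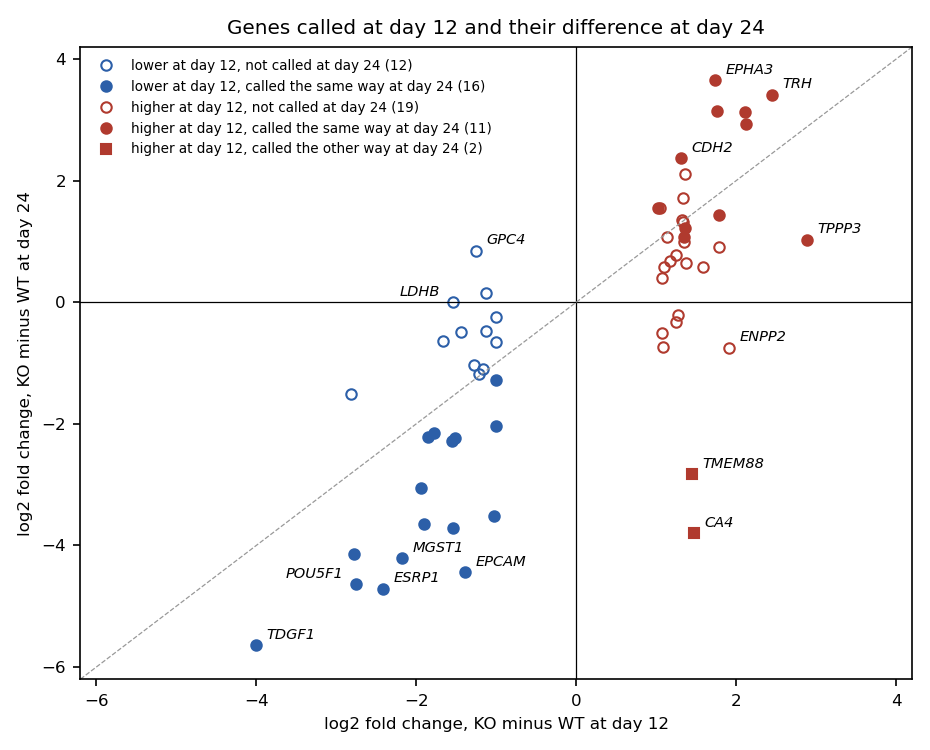
Log2 fold change of KO against WT at day 12 (x axis) and at day 24 (y axis) for the 60 called genes that could be tested on both days. Filled circles were called in the same direction at day 24, open circles were not called, squares (*TMEM88* and *CA4*) were called in the other direction, and the dashed line marks equal changes. The 16 genes called lower on both days lie at the lower left and the 11 called higher on both days at the upper right.

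Whether a difference itself changed between days was tested as an interaction over all 12 libraries. The difference of KO against WT became more positive for 158 genes (1.59% of 9952 tested) and more negative for 210 (2.11%), and 2 and 15 of these were called at day 12. The libraries that gave the day 12 calls also entered this test. *GPC4*, a glypican, was lower in KO at day 12, at 22 and 28 against 8, 9, 10 and 13, and at day 24 scored 18 and 26 in WT versus 36, 46, 33 and 46 in KO (change of the difference 2.10, SE 0.21, adjusted *p* = 0.00325). *CA4* went the other way, from 11, 14, 14 and 16 in KO at day 12 to 0, 0, 2 and 0 at day 24, while WT went from 3 and 6 to 20 and 15 (change −5.27, SE 0.56, adjusted *p* = 0.00325). *NOS2* scored 4 in both WT libraries of day 24 and 0, 1, 2 and 1 in KO (change −4.63, SE 0.59, adjusted *p* = 0.00662). *FOSL2* at day 24 scored 7 in both WT libraries versus 2, 2, 4 and 2 in KO (change −2.77, SE 0.40, adjusted *p* = 0.0140).

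Among the AP-1 genes, *ATF3* and *FOS* passed the same test besides *FOSL2*, and *JUN* did not. *JUN* had a log2FC of 1.33 at day 12 and 1.25 at day 24 (change −0.08, SE 0.33, adjusted *p* = 0.901), and at day 24, where it scored 13 and 15 in WT versus 39, 39, 29 and 32 in KO, it was called higher (adjusted *p* = 0.0184). *ATF3* turned from 1.01 at day 12 to −1.55 at day 24 (change −2.56, SE 0.28, adjusted *p* = 0.00325), where it scored 28 and 36 in WT versus 11, 9, 12 and 9 in KO. *FOS* was scattered at day 24, with 34 and 6 in WT versus 47, 1, 8 and 2 in KO (change −3.63, SE 0.89, adjusted *p* = 0.0491).

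Most genes with the smallest interaction *p* were not called at day 12. Toward more positive differences these were *GPC4*, *SMARCD3*, *NR2F1*, *SCD5* and *DRAXIN*. *NR2F1*, a nuclear receptor of the developing cortex, scored 13 and 22 in WT versus 28, 38, 20 and 33 in KO at day 12 (log2FC 0.74, adjusted *p* = 0.0732), and its difference widened by 1.66 (SE 0.21, adjusted *p* = 0.00586). Toward more negative differences they were *RPS15A*, *UPP1*, *NR6A1*, *GDF15* and *SLC2A3*. *NR6A1*, a nuclear receptor of stem cells, scored 88 and 95 against 58, 77, 72 and 92 at day 12 (log2FC −0.31), and the change was −2.09 (SE 0.18, adjusted *p* = 0.00151).

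The genes that the study itself names for these libraries were counted last. That list was chosen on the day 24 libraries of the same lines and is no independent evidence of its direction. Of 21 genes named as higher and tested at day 12, *CDH2* and *TRH* were called higher (0.405% of all genes), 0 lower, and 17 had a positive log2 fold change (49.4% of all genes). Of 30 named as lower, 5 were called lower (*POU5F1*, *TDGF1*, *UGP2*, *MGST1* and *EPCAM*), beside 0.394% of all genes, 0 were called higher, and 23 had a negative log2 fold change (4478 of all 8885 genes tested). *NEDD4*, a ubiquitin ligase gene of the first list, sat on shared levels, with 1204 in both WT libraries versus 5585, 5585, 5585 and 1204 in KO (adjusted *p* = 0.182).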

How the data were processed

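COs of WT, KO#2 and KO#10 had been profiled by RNA-seq at day 12 and day 24, using a strand-specific kit that removes ribosomal RNA. The authors deposited 1 file per library, with a whole-number score for each of 10976 genes. The scores are not raw counts. The submitters' processing notes name bcl2fastq, Bowtie2, RSEM and the mouse build mm10 without saying how each was used, and the scaling is not given in the sources used here. The gene intervals in the files are human, and 10975 of 10976 overlap the gene of the same identifier in GENCODE release 29 (GRCh38). Scaling to a shared distribution hides global changes, and abundant genes fall on a few shared levels. One gene had an identifier and no symbol.

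Groups, days and replicate numbers came from the labels. The scores were transformed as log2 (score + 1), and genes that reached a score of 10 in 2 or more of the 6 libraries were fitted with limma 3.58.1 (lmFit, eBayes with a trend) in R 4.3.3, KO against WT with the replicate number as a block. At day 12 the deviations from the group mean ran together in same-numbered libraries (r across genes 0.459 for WT and KO#2, 0.428 for WT and KO#10, 0.598 for KO#2 and KO#10), and the pairing comes from the labels' replicate numbers. Day 24 was fitted without the block, and the change of the KO difference between days was fitted on all 12 libraries with the replicate number within each day as a block. The fits were tested on simulated data. The smallest *p* that an exact permutation of 2 against 4 libraries could give is 0.0667, so that no such test was made.

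The comparison, the gene lists and the named genes were chosen with earlier results of these data known. The share of a list that was called is therefore no independent test of that list. Named were the 12 largest rises and 12 largest falls with no overlap and a mean score of at least 10, the called members of each list (up to 6, or the 3 with the smallest *p*), the AP-1 family, 5 genes in each direction of the interaction, and defining markers. The remaining named genes (*BCOR*, *CST3*, *CTTNBP2*, *DRD4*, *EFEMP2*, *L1TD1*, *LEMD1*, *LIN28B*, *LINC00678*, *MAN2A1*, *MID1*, *NOTCH1*, *NOTCH2*, *PTN*, *SALL3*, *SALL4* and *SCARNA2*) were chosen after their values were seen. Alternatives were other filters, a pseudocount of 0.1, no trend, no block, separate clones, all 12 libraries in 1 fit, centred libraries, an unadjusted *p*, and each library left out in turn. Promoter and microRNA sequences were taken from RefSeq tables. Figures were drawn with Python 3.11.15 and matplotlib 3.10.9.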

Additional observations from a re-analysis of the deposited data

Results flagged for a closer look

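Within the 4 KO libraries of day 12, 121 named genes were tried for a single library far from the other 3, of which chance alone would give about 5%, and 9 were found. *AASS* stood at 108 in KO#10 replicate 1, *VRTN* at 4, *EPCAM* at 6 and *CTTNBP2*, a cortactin-binding protein gene, at 5 in KO#2 replicate 1, and *BCOR*, a corepressor of BCL6, at 8 in KO#2 replicate 2. The gap was a single score unit in the last 4 of these. Among genes not called at day 12, *CDKN1A* stood at 25 and *NEDD4* at 1204 in KO#10 replicate 2, *MAP2* at 149 in KO#2 replicate 1 and *PAX6* at 90 in KO#10 replicate 1, each below the other 3 libraries.

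The difference of KO against WT changed between day 12 and day 24 for 41 named genes by the test of the interaction in limma. Over all 9952 genes tested it became more positive for 1.59% and more negative for 2.11%. Some of the 41 were named for this same test. Others were named as called at day 12, on libraries that also enter it, so that the count is no independent result. The difference became more positive for *GPC4* (2.10 on the log2 scale) and *BCOR* (1.28). It became more negative for genes that were lower in KO at day 12, by −1.88 for *POU5F1*, −2.24 for *VRTN*, −3.05 for *EPCAM* and −2.48 for *L1TD1*. It also became more negative for genes that were higher in KO at day 12, by −5.27 for *CA4*, −4.63 for *NOS2*, −4.27 for *TMEM88*, −3.24 for *EMP1*, −2.77 for *FOSL2*, −2.66 for *ENPP2*, −1.85 for *TPPP3*, −1.81 for *EFEMP2*, −1.65 for *DRD4*, −1.58 for *CST3* and −1.58 for *PLK2*. Of the genes not called at day 12, it became more positive for *SMARCD3* (2.05), *DRAXIN* (1.87), *WNT7B* (1.73), *NR2F1* (1.66) and *SCD5* (1.24). It became more negative for the AP-1 and stimulus-induced genes *FOS* (−3.63), *ATF3* (−2.56) and *SOCS3* (−1.15), for the pluripotency genes *MIR302CHG* (−4.31), *LIN28A* (−3.33), *DPPA4* (−1.98), *LIN28B* (−1.54) and *SALL4* (−1.20), for the epithelial and junction genes *KRT19* (−3.24), *KRT8* (−3.06), *DSP* (−2.78) and *F11R* (−1.88), and for *CDKN1A* (−2.70), *SLC2A3* (−2.46), *UPP1* (−2.43), *NR6A1* (−2.09) and *RPS15A* (−1.79). *GDF15* (−5.42) and *HBE1* (−4.70) were too low to be tested at day 12, and *HBE1* was at 0 in all 6 libraries there.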

How the results depend on the processing

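The counts depended on the processing. With all libraries 36 genes were called higher and 35 lower. Without the replicate block the counts were 2 and 6, with a score of at least 20 they were 17 and 10, with no filter 14 and 18, with all 12 libraries in 1 fit 16 and 9, and at an unadjusted *p* 88 and 68. With the clones as separate groups 31 were higher and 19 lower. Leaving out 1 KO library gave 0 to 2 genes higher and 0 to 5 lower, and not every one of these was called with all libraries. The counts stayed within 1.5 times under a score of at least 5 (34 and 32), a pseudocount of 0.1 (40 and 31), no trend (35 and 36) and centred libraries (49 and 46). Without the replicate block, KO#2 alone gave 1 call (35 with it), KO#10 alone 1 (5 with it) and the change between days 130 (368 with it), while day 24 gave 661 with the replicate block and 744 without. The cause was not tested, except that fewer genes or libraries entered some fits. No called gene changed direction under any of these, which their selection for a 2-fold change in the same libraries made likely. *POU5F1* and *TDGF1* kept their calls in 13 of 16 and 13 of 14 alternatives, *AASS* in 11 of 16, and *UGP2*, *MGST1*, *DNMT3B*, *NOS2* and *PLK2* in 10 of 16. Without a WT library 16 of the 35 lower genes still passed the filter. The unknown depth, scores under 10 in 1 group, and 2 WT libraries limit every value.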

Other observations

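Some gene groups that the comparison did not turn on are given as values. *COL11A1*, a fibrillar collagen chain, was the 1 call among 31 extracellular matrix genes (0.405% of all genes called higher), with 28 and 24 in WT versus 86, 76, 75 and 42 in KO (log2FC 1.35, SE 0.23, adjusted *p* = 0.0444). *COL4A6*, a basement membrane collagen chain, scored 19 and 20 against 34, 39, 34 and 37 (log2FC 0.85, adjusted *p* = 0.0215, under 2-fold). WNT pathway genes gave 0 calls among 21 tested by limma, with 8 at an unadjusted *p* under 0.05 beside 19.4% of all genes, and *WNT7B*, a ligand of the developing forebrain, scored 6 and 9 against 12, 17, 12 and 22 (log2FC 0.96, adjusted *p* = 0.0399). *HELLS*, a chromatin remodeller that assists DNA methylation, scored 184 and 148 against 112, 84, 100 and 102 (log2FC −0.73, adjusted *p* = 0.0403). Of 20 p53 target genes *PLK2* was the only call (0.405% of all genes called higher), while 16 had a positive log2 fold change (49.4% of all genes). Their median was 0.22, beside −0.002 over all genes, and 3 of the 20 passed the filter through KO libraries alone.

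The most positive log2 fold change of all genes tested, 4.70, belonged to the small Cajal body RNA gene *SCARNA2*, which scored 0 and 114 in WT versus 394, 200, 301 and 250 in KO. Its SE was 1.41 and its adjusted *p* 0.146, and the score of 0 came from 1 WT library.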
